A study of Mus musculus with 4 samples.

Results

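The regions described here are KAP1 summits that were found in both replicates and lay at the end of 1 protein-coding gene. A summit is the base of highest enrichment within a peak of chromatin immunoprecipitation and sequencing (ChIP-seq). A summit of replicate 1 was taken as shared when replicate 2 had a summit within 200 bp. It was kept when it lay on chromosomes 1 to 19 and within 1000 bp of the lowest or highest coordinate of exactly 1 coding gene in the RefSeq table. The rule found 1476 regions among the 7641 shared summits of these chromosomes, or 19.3% (95% Wilson interval 18.4–20.2). They lay at 1403 of 20665 coding genes, a share of 6.79%. The regions were chosen by the positions of summits in both lists and by gene coordinates, so the number of shared summits at gene ends is a description. The scores were not used.

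The cells were regulatory T cells from the spleen of C57BL/6 mice, sorted and then grown in culture for 2 weeks. Both KAP1 samples were of this 1 kind, with no second genotype, treatment or time, and were precipitated with the antibody 1Tb-A9 against KAP1. The 2 input samples were not analysed here. Nothing in the labels ties the 2 replicates to separate animals or cultures, and the spread between them may be technical. Replicate 1 had 8862 summits and replicate 2 had 79515, and the read depth behind them is unknown. The data hold no RNA, so the identity of the cells could not be checked by expression.

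KAP1, encoded by Trim28, is a corepressor that has no sequence-specific DNA-binding domain of its own. KRAB zinc finger proteins bring it to DNA, where it recruits the histone methyltransferase SETDB1 and silences transposable elements and some genes. KAP1 has also been described at promoters of active genes, where it takes part in the release of paused RNA polymerase II. Regulatory T cells are CD4 T cells that restrain immune responses and depend on the transcription factor Foxp3.

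Promoter sequences of 8 regions are printed first because they show a sequence feature that went with the peak scores. They are the highest-ranking regions, by the mean percentile of their 2 scores, whose summit lay inside a RefSeq promoter window, the stretch from 250 bases before to 50 bases after a transcription start. Each is given 5′ to 3′ along the gene on GRCm38.p6, for up to 150 bases on each side of the summit where the window reached that far. Runs of 10 or more adenines or thymines are in capitals.
Tatdn2 (chr6:113696800-113696994, plus strand): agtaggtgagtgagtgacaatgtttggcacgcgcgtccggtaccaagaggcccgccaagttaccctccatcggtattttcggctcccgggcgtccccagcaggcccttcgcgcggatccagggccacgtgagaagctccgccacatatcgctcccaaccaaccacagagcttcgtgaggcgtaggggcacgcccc
Ddx20 (chr3:105687522-105687802, minus strand): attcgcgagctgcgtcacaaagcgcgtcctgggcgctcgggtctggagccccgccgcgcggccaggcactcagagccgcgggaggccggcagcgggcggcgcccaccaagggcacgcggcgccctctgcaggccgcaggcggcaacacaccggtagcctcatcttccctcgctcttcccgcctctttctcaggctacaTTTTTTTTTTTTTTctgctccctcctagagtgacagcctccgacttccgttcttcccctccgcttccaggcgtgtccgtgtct
Samsn1 (chr16:75909217-75909419, minus strand): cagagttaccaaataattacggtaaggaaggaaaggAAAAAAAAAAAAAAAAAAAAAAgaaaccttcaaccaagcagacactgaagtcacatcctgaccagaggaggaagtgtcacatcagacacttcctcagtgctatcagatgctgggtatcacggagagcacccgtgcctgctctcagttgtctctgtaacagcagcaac
Mrpl9 (chr3:94443086-94443382, plus strand): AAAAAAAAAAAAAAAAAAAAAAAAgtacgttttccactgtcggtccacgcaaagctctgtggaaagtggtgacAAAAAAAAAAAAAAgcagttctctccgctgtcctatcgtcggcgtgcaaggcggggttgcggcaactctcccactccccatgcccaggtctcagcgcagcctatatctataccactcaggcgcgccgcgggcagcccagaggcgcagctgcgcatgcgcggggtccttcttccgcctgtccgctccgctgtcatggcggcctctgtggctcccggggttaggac
Cltc (chr11:86757518-86757808, minus strand): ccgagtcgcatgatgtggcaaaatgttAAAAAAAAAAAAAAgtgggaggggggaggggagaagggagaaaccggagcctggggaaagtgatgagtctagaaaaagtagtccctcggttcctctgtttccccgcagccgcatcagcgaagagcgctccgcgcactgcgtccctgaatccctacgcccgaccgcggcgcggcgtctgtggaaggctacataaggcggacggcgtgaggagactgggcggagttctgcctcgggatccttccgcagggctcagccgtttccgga
Il2ra (chr2:11642636-11642841, plus strand): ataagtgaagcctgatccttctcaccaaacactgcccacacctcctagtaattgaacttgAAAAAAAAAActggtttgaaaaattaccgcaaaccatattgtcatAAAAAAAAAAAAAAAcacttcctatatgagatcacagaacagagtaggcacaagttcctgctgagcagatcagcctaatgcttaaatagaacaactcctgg
Kat2b (chr17:53566740-53567020, plus strand): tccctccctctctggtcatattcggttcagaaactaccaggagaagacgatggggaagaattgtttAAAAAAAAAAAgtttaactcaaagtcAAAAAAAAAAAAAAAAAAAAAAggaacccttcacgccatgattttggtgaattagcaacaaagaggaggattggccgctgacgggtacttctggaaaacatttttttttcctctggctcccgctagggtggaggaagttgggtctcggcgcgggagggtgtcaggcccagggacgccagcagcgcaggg
Srrm1 (chr4:135353203-135353396, minus strand): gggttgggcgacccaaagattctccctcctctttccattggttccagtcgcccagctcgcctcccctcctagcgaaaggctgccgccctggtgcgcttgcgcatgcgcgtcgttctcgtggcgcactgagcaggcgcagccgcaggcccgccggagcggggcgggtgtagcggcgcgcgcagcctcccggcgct

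Of these 8 stretches, 6 held at least 1 run. In Il2ra (CD25, a high-affinity receptor chain for interleukin 2), the summit is base 151 of the printed stretch, 6 bp before the start. Runs of 10 and 15 adenines were centred 85.5 and 38 bases before it. In Kat2b, a histone acetyltransferase gene, runs of 11 and 22 adenines were centred 79 and 47.5 bases before the summit at base 151. In Mrpl9, a gene of the mitochondrial ribosome, runs of 24 and 14 adenines were centred 134.5 and 66.5 bases before the summit at base 147. Samsn1, an adaptor gene of lymphocytes, had 1 run of 22 adenines centred 103.5 bases before the summit. Cltc, the clathrin heavy chain gene, had 1 run of 14 adenines centred 116.5 bases before it. Ddx20, an RNA helicase gene, had 1 run of 14 thymines, and it lay on the other side, 54.5 bases after the summit. Tatdn2 and Srrm1 held none.

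Short runs of this kind are common in mammalian genomes, so their share at these summits was set beside that in promoters at large. Start regions are those at the transcription start of their gene, and 391 of the 1017 start regions had their summit inside a promoter window. Of these 391 windows, 81 held a run of 10 or more adenines or thymines, or 20.7% (17.0–25.01). The share was 4.08% (3.81–4.36) of the 20085 coding promoter windows on chromosomes 1 to 19. It was 4.45% (3.06–6.44) of 584 windows of genes with a start region whose summit lay outside the window. Within 50 bases of the summit, 10.4% (7.37–14.4) of 289 windows held a run, and 1.41% of all coding promoters did at the same offsets from the start. The run length was chosen after the printed sequences had been seen.

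Windows with a run had the higher scores in both replicates. The score is a −log10 value from the peak caller, of p or of q, and the lists do not say which. The median replicate 1 score was 15.9 (quartiles 10.3–28.1) for the 81 windows with a run and 7.25 (4.94–9.86) for the 310 without. The median replicate 2 score was 36.9 (23.5–50.8) with a run and 8.36 (6.50–14.0) without. The quartile ranges of the 2 sets of windows did not overlap in either replicate.

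The share of windows with a run climbed with the score. Ranked by replicate 1 score, it was 1.02%, 10.2%, 19.4% and 52.6% from the lowest to the highest of 4 equal groups. Ranked by replicate 2 score it was 1.02%, 4.08%, 14.3% and 63.9%. Windows with tied replicate 1 scores of 5.10, 7.64 and 13.2 were split between neighbouring replicate 1 groups. In the highest replicate 2 group, 62 of 97 windows held a run, and in the lowest 1 of 98 did. By mean percentile, 15 of the 20 highest-ranking windows held a run and 0 of the 20 lowest did.

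The runs had a fixed orientation relative to the summit. Of 54 adenine runs, 53 lay before the summit along the gene and 1 after it. Of 37 thymine runs, 34 lay after the summit and 3 before it. A run of thymines is a run of adenines on the opposite strand, so 87 of the 91 runs (95.6%) were on the 5′ side of the summit on the strand that reads as adenines. These 87 were centred a median of 62.5 bases from the summit, with 69 of them 25 to 100 bases away. No run lay over a summit. The length of window before and after the summit differed from gene to gene. In the windows with a run the median summit was at -107 bases from the start, in a window from 250 bases before the start to 50 after it.

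**Figure D1:**
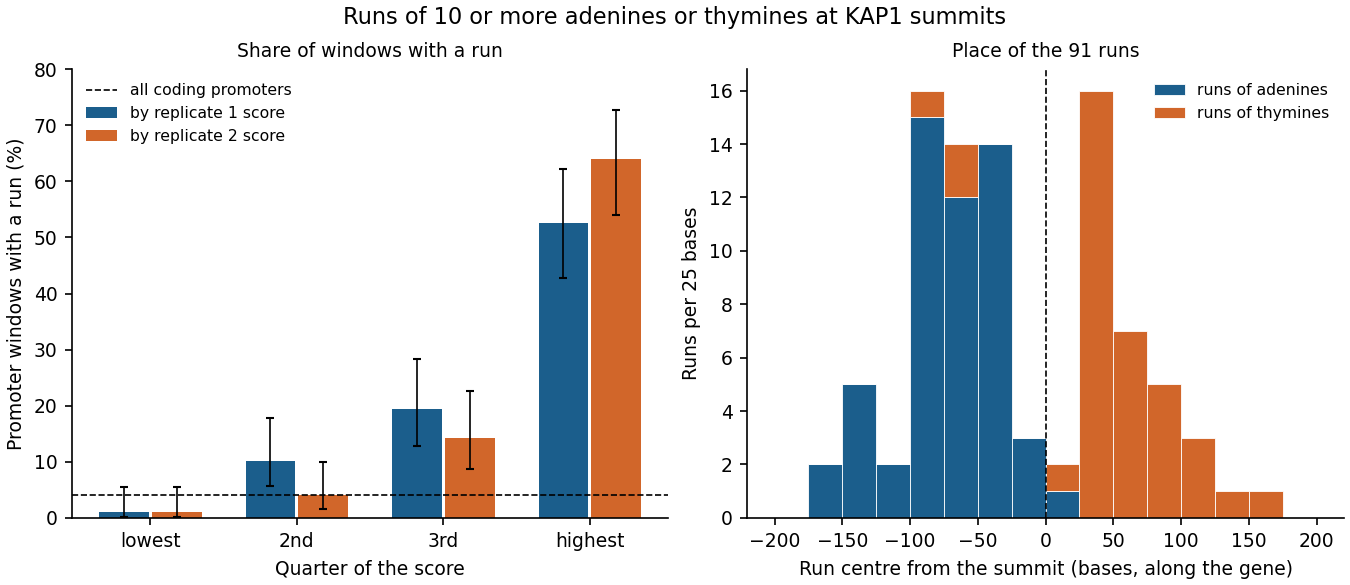
Left, share of the 391 promoter windows holding their summit that also held a run of 10 or more adenines or thymines, in 4 equal groups by replicate 1 score and by replicate 2 score, with 95% Wilson intervals (counting error only) and the share of all coding promoters as a dashed line. Right, number of runs per 25 bases by distance of the run's centre from the summit (0), negative before it along the gene: 53 of 54 adenine runs are on the left and 34 of 37 thymine runs on the right.

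The run share differed between regions found in both lists and those found in 1. These counts use every RefSeq promoter window, of which 4.70% (4.48–4.94) held a run. The share was 20.4% (16.8–24.6) of the 411 windows holding a summit of the present regions. Among replicate 1 summits at 1 coding gene end without a replicate 2 partner it was 1 of 60 windows, or 1.67% (0.295–8.86). Among replicate 2 summits without a replicate 1 partner it was 101 of 253, or 39.9% (34.1–46.1). The 3 sets also differed in score. The median replicate 1 score was 4.17 for the 202 replicate 1 summits without a partner and 8.34 for the present regions. The median replicate 2 score was 8.52 for the 2938 replicate 2 summits without a partner and 13.2 for the present regions. Shared summits at the ends of more than 1 gene gave 20.2% (13.04–30.04) of 84 windows, those in gene bodies 32% (22.5–43.2) of 75 and those outside coding genes 12.9% (5.13–28.9) of 31. The libraries were made with the DNA SMART ChIP-Seq kit, a method that, as background, adds a homopolymer tail to single-stranded DNA. The part of library preparation in the runs was not tested, and the input samples were not analysed here.

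The side of the gene was a feature that the rule did not use. The gene table gives no strand, but the RefSeq promoter table gave one for 16457 coding genes of chromosomes 1 to 19, and through it for 1153 of the 1476 regions. Of these, 1017 lay at the transcription start and 136 at the 3′ end, so the start share was 88.2% (86.2–89.9) and starts outnumbered 3′ ends 7.48 to 1. In the replicate 2 list alone, with no partner required, the start share at 1 coding gene end was 67.1%, and in replicate 1 alone it was 88.5%. Start regions belonged to 975 genes (5.92% of those with a strand), and 3′ regions to 136 genes (0.826%). Each gene has 1 coordinate of either kind. For the other 323 regions, at 306 genes, no strand was given.

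Regions at starts gathered just before the start. Of the 1017, 164 lay within 100 bp outside the gene and 89 within 100 bp inside it. Past 100 and up to 500 bp, 298 lay outside and 131 inside. Beyond 500 bp the sides were close, with 165 outside and 170 inside. The median signed distance from the start was -73 bp, where negative is outside the gene. The start here is the outermost coordinate of the gene, which can lie before a listed transcription start. From the nearest start listed in the promoter table the median was -152 bp. Ddx20, for example, lay 136 bp inside its gene but 81 bp before a listed start. Distances of named regions from a gene's start use the gene coordinate too. Of all start regions, 38.3% (35.4–41.4) lay inside the gene.

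Regions at 3′ ends were fewer in every distance range counted, with 13 within 100 bp outside the gene and 9 within 100 bp inside. Of the 136, 22 (16.2%) lay within 100 bp of the end, compared with 253 (24.9%) of the start regions. Their median signed distance was -243 bp, beyond the gene, and 36.03% (28.4–44.4) lay inside it. The share of regions of either kind that lay inside the gene was 37.9% (35.4–40.4), or 559 of 1476.

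**Figure D2:**
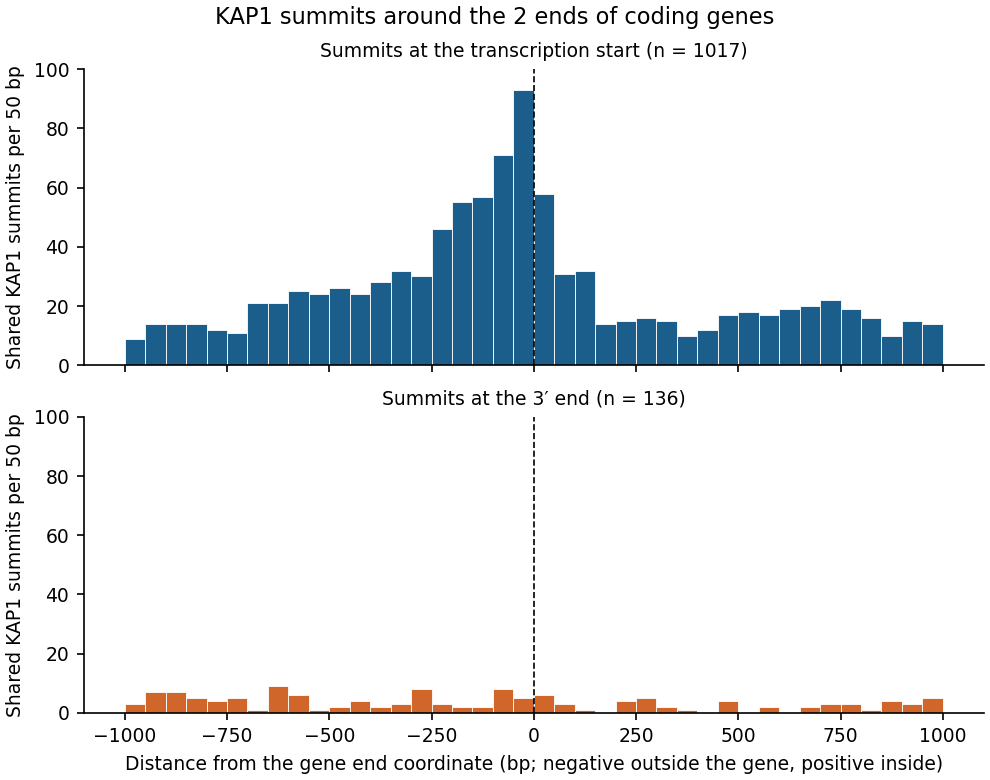
Number of shared KAP1 summits per 50 bp by distance from the gene end coordinate (dashed line), negative outside the gene and positive inside, for the 1017 summits at starts (top) and the 136 at 3′ ends (bottom) on the same scale. The start panel peaks just outside the gene, where 164 summits lie within 100 bp, and the 3′ panel is lower, with 13 there.

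Median scores were not highest next to the start. Start regions 250 to 500 bp outside the gene had a median replicate 1 score of 9.12 and a median replicate 2 score of 19.6. Those within 100 bp outside it had medians of 7.26 and 9.70. So the 100 bp with the most summits were not those with the highest medians.

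Summits seen in only 1 list gave the same comparison with a different outcome in each replicate. Of the 202 replicate 1 summits at 1 coding gene end with no replicate 2 partner, 146 were at starts and 15 at 3′ ends, a start share of 90.7% (85.2–94.3). Of the 2938 such replicate 2 summits with no replicate 1 partner, 1331 were at starts and 1014 at 3′ ends, a start share of 56.8% (54.7–58.8). Only the replicate 2 interval lay apart from the 88.2% of the shared regions. Replicate 2 summits at starts were also more spread out, with 12.2% (10.6–14.1) within 100 bp of the start, compared with 24.9% (22.3–27.6) of the shared ones.

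The scores of the regions ran over a wide range in both replicates. Replicate 1 scores were 1.48 at the lowest, 8.34 at the median and 136.6 at the highest. Replicate 2 scores were 3.17, 13.2 and 145.4. Across the 1476 regions the 2 scores had a Spearman correlation of 0.800, and both lists were called from the same genome and share its base composition and mappability. Replicate 1 held only 278 distinct scores among these regions, and replicate 2 held 1200, so many regions tied in replicate 1. The rule required a partner within 200 bp. Within that limit the median offset between replicates was 6 bp (quartiles 2–18), with 153 on the same base and 1378 within 50 bp.

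**Figure D3:**
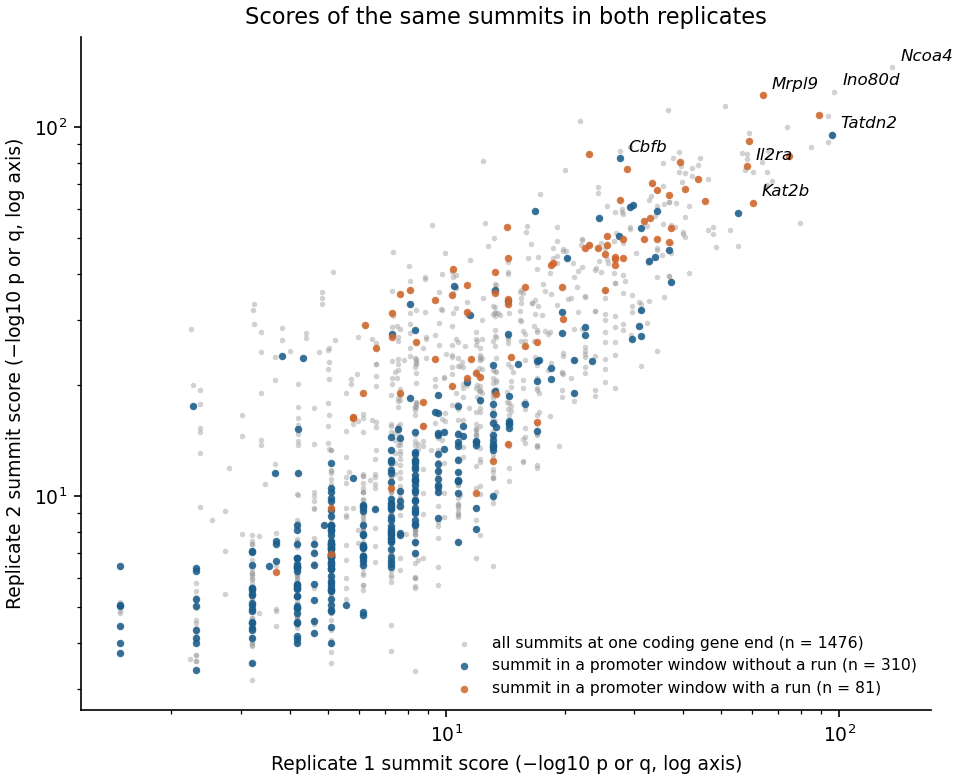
Replicate 2 score against replicate 1 score for all 1476 regions, both on log axes, in grey. Regions whose summit lay in a promoter window are coloured by the presence (81) or absence (310) of a run of 10 or more adenines or thymines, and those with a run lie mostly at the high end of both scores.

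Regions in the top 10% of the scores of both lists numbered 207, or 14.0% (12.3–15.9). Among the other shared summits of chromosomes 1 to 19, 667 of 6165 were, or 10.8% (10.1–11.6). The median percentile within the replicate 1 list was 58.3 for regions at 1 gene end, at the ends of more genes, in gene bodies and outside coding genes alike. In replicate 2 these medians were 83.4, 76.7, 81.1 and 78.6.

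The highest-ranking region lay 307 bp before the start of Ncoa4, a nuclear receptor coactivator and cargo receptor for ferritin breakdown, at chr14:32159572 (GRCm38). It scored 136.6 in replicate 1 and 145.4 in replicate 2, the highest of all regions in both. Ino80d, a subunit gene of the INO80 chromatin remodeller, scored 96.9 and 125.0 at chr1:63114335. Rex1bd scored 93.8 and 107.6. Among the regions, these 3 had the highest mean percentile of the 2 scores.

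The next regions lay at genes of varied roles. Rara, the retinoic acid receptor alpha gene, had its region 620 bp beyond the 3′ end, at chr11:98975562, with scores of 95.9 and 95.7. Tatdn2 scored 95.9 and 95.5, and Ddx20 89.0 and 107.9. Utp3, needed for ribosome assembly, scored 93.8 and 91.2. Tram1, a gene of protein import into the endoplasmic reticulum, scored 84.9 and 88.2. All these values were in the top 1% of their lists.

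Genes with a known place in lymphocytes were among the 20 highest-ranking regions. Samsn1 scored 74.4 and 83.5. Kcnn4, a calcium-activated potassium channel of lymphocytes, scored 79.5 and 55.0, 152 bp inside its start. The other regions of the 20 were at D030056L22Rik, Mrpl9, Rnf167, Cnbp, Tfap4, Prpf18, Rab19, Cltc, Setbp1 and Nup205, with replicate 1 scores from 58.9 to 73.7 and replicate 2 scores from 69.1 to 122.1. Of the 20, 12 were at starts, 3 at 3′ ends and 5 at genes with no strand given, and 5 lay inside their gene. Of the 5 whose summit fell in a promoter window, 4 had a run, beside 81 of all 391 such windows.

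These regions lay nearest the limits of the rule. At the 200 bp limit between replicates, Thrap3 was inside with a partner at 161 bp and Rnf139 was outside with one at 216 bp. At the 1000 bp limit from a gene end, Mfng was inside at 998 bp and Cytip outside at 1002 bp. Thrap3 scored 4.61 and 4.60 and Mfng 17.0 and 11.9.

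Genes of the regulatory T cell signature carried such a region in 11 of 41 cases, 26.8% (15.7–41.9) beside 6.79% of all coding genes. Il2ra, with scores of 58.3 and 78.3, ranked first among them. Lag3, an inhibitory receptor, scored 13.4 and 23.7, and Rgs1, which dampens G protein signals, 13.2 and 16.2. Selplg, a selectin ligand gene, scored 9.73 and 39.9 at 819 bp outside the gene. The others were Capg, Nrp1, Tigit, Irf4, Socs2, Ctla4 and Batf.

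Ctla4, the checkpoint receptor through which these cells act on other cells, had 1 region 118 bp inside its start, at chr1:60909143. Its scores were low, 2.74 and 9.08. Foxp3 lies on chromosome X, outside the rule, so it could not have a region and is not among the 41 signature genes. It had no summit within 1000 bp of either end in either list. Trim28, on chromosome 7, had none either. Ikzf2, which encodes Helios, had 1 replicate 1 summit at an end and no replicate 2 summit there. Of the 11 signature genes, 2 had their summit in a promoter window, and Il2ra's window held a run. Over all 391 such windows, 81 held a run.

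Genes of T cell identity and of conventional T cells had shares as high as the signature. For T cell identity it was 8 of 29 genes, or 27.6% (14.7–45.7). Cbfb, the partner subunit of RUNX factors, scored 27.7 and 82.6 at 246 bp before its start. Tox scored 22.5 and 34.6, Cd28, a costimulatory receptor, 15.9 and 27.5, and Ptprc, which encodes CD45, 10.3 and 19.8. Cd6, Bcl11b, Cd3g and Zap70 followed, and Zap70, a kinase of T cell receptor signalling, was lowest at 4.17 and 4.10.

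For conventional T cells, a list of genes of naive and helper T cells, the share was 7 of 23, or 30.4% (15.6–50.9). Bach2, a repressor that holds T cells in a naive state, scored 31.0 and 33.7, with its region 643 bp beyond the 3′ end. Bcl6, the repressor of follicular helper T cells, scored 13.6 and 31.3. Igfbp4 scored 12.3 and 19, and Themis 8.34 and 14.9. Tbx21, Il7r and Stat3 were the rest. The intervals of the 3 T cell lists overlapped. With scores at or above the median of both lists, 7 signature genes, 5 T cell identity genes and 6 conventional T cell genes had a region, beside 4% of all coding genes. With a 500 bp window these were 7, 8 and 5, beside 4.96%. The members of these lists whose summit lay in a promoter window were 3 for T cell identity and 2 for conventional T cells. A run was in 1 of each, Ptprc and Il7r, beside 81 of all 391 such windows.

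Markers of other cells gave counts that these short lists cannot set apart from the 6.79% of all coding genes. They were 0 of 12 B cell genes, 0 of 14 myeloid genes, 0 of 19 neuronal genes and 1 of 9 erythroid genes. That gene was Tfrc, the transferrin receptor, which dividing cells in general use. The upper limits of the intervals were 24.2% for B cell, 21.5% for myeloid and 16.8% for neuronal genes.

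Several lists of the machinery of protein synthesis and breakdown had shares above the 6.79% of all coding genes. Genes of the cytosolic ribosome had a region in 19 of 85 cases, 22.4% (14.8–32.3), led by Rpl5 with scores of 27.7 and 63.6. Rpl41 scored 26.8 and 43.9, Rpl28 29.6 and 27.3, and Rps10 26.7 and 40.3. Mitochondrial ribosome genes had one in 11 of 78, 14.1% (8.06–23.5). Mrpl9 led them with 64.0 and 122.1, followed by Mrpl45 with 21.9 and 103.9, Mrpl1 with 13.4 and 20.3, and Mrpl20 with 13.2 and 14.5.

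Proteasome subunit genes had a region in 7 of 38 cases, 18.4% (9.22–33.4). Psmc1, a subunit of the regulatory cap, scored 37.4 and 53.4, and the core subunits Psma1, Psma3 and Psmb6 scored 17.0 to 20.2 in replicate 1 and 23.9 to 46.1 in replicate 2. Genes named Eif with a number, listed here as translation factors by symbol alone, had one in 9 of 53, 17.0% (9.20–29.2). Eif5a scored 28.1 and 44.1, Eif3d 14.4 and 33.1, Eif4e2 12.2 and 15.4, and Eif2ak1 8.72 and 15.6. The next counts of runs take the highest-ranking region of each gene. Where its summit lay in a promoter window, a run was present in 3 of 6 for the cytosolic ribosome. It was present in 1 of 6 for the mitochondrial ribosome. For the proteasome it was 2 of 3, and for translation factors 3 of 5. Over all windows holding their summit, counted for every start region, it was 81 of 391, or 20.7%, and the lists have few windows each. Lower-ranking regions of Mrpl1, Mrpl58 and Eif4e2 also lay in windows, none with a run, and are not in these list counts. The part of runs in these counts was not tested. With a 500 bp window the cytosolic ribosome fell to 11 of 85 and translation factors to 5 of 53, beside 4.96% of all coding genes. With scores at or above the median of both lists the mitochondrial ribosome fell to 7 of 78, beside 4%. For splicing factor and hnRNP genes the count was 4 of 52, or 7.69%, beside the 6.79% of all coding genes.

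Genes of cell growth and division gave shares whose intervals reached the background. For amino acid transport and mTORC1 it was 4 of 24, 16.7% (6.68–35.9). Slc3a2, the heavy chain of CD98 amino acid transporters, scored 38.3 and 53.6. Rptor, the scaffold of mTORC1, scored 11.9 and 10.5, Mlst8 7.25 and 9.78, and Rheb 5.10 and 7.32. For cell cycle and replication it was 5 of 34, 14.7% (6.45–30.1). Cdc25a, a phosphatase that starts division, scored 22.2 and 49.6, E2f2 14.6 and 22.3, Mcm2 15.9 and 17.7, and Cdkn1a 15.7 and 12.4.

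Partners of KAP1 in silencing had a region in 2 of 25 cases, 8% (2.22–24.97). Setdb1, the methyltransferase that KAP1 recruits, scored 7.25 and 13.3 at 106 bp before its start. Atf7ip, a SETDB1 cofactor, scored 8.72 and 6.80. Zinc finger genes named Zfp with a number had one in 40 of 386, 10.4% (7.70–13.8). The first were Zfp438 with 35.8 and 62.0, Zfp64 with 33.1 and 56.7, Zfp809 with 28.0 and 59.9 and Zfp101 with 23.1 and 48.0. Zfp809 is known to bring KAP1 to retroviral primer binding sites. Of the Zfp genes with a strand, 29 had a region at the start and 0 at the 3′ end, and 11 had no strand given. Of 13 whose summit lay in a promoter window, 4 had a run, beside 81 of all 391 such windows. With scores at or above the median of both lists, 23 of 386 Zfp genes had a region, beside 4% of all coding genes. The share of all coding genes under the main rule was 6.79%.

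Large families outside these groups were near or under the background. Solute carrier genes gave 28 of 376, 7.45% (5.202–10.6). Slc35b1 scored 39.1 and 75.5 at 289 bp before its start, and Slc35g2 scored 36.7 and 111.4 at 578 bp beyond its 3′ end. Histone genes gave 4 of 77, 5.19% (2.04–12.6). Olfactory receptor genes gave 2 of 1104, 0.181% (0.0497–0.658), Olfr525 and Olfr70, both at the 3′ end. Hox genes gave 0 of 39, with an upper limit of 8.97%. Of these 4 families, only olfactory receptor genes had an interval wholly below the 6.79% of all coding genes.

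**Figure D4:**
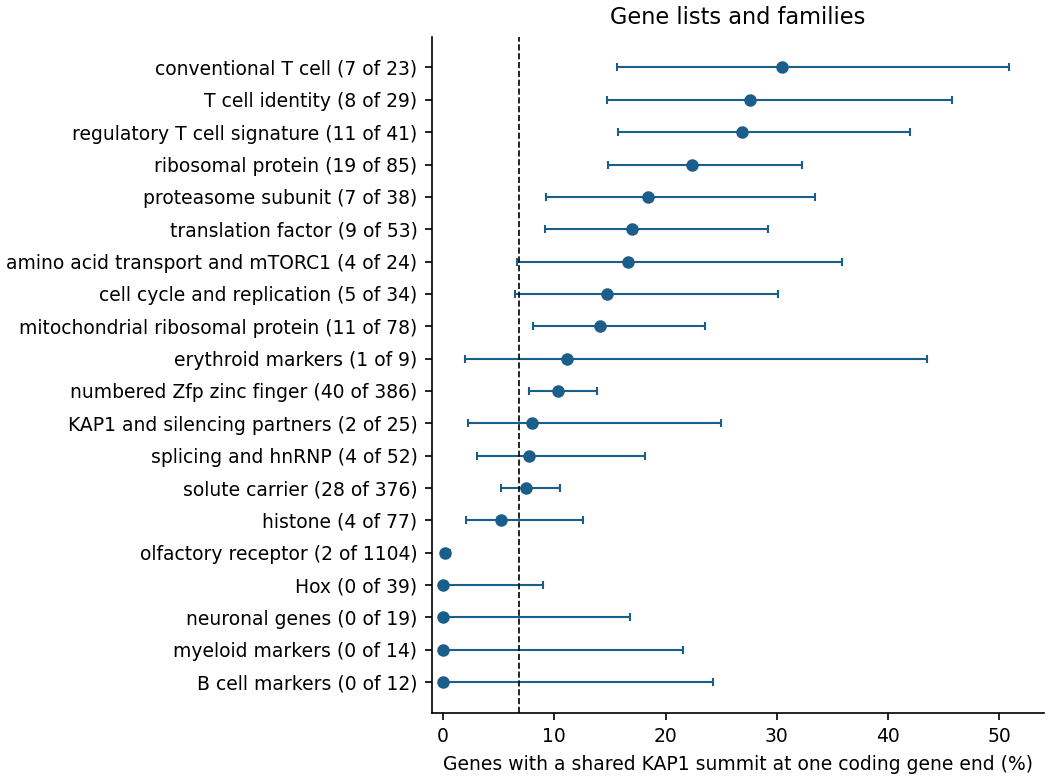
Share of the genes of each list or family on chromosomes 1 to 19 that had a shared KAP1 summit at 1 coding gene end, with 95% Wilson intervals (counting error only) and counts beside the names; the dashed line is the 6.79% of all coding genes. The 3 T cell lists are the highest, at 26.8% to 30.4%, and olfactory receptor genes are near 0.

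CpG content differed between starts with a region and starts at large. The ratio of observed to expected CpG dinucleotides is high in promoters that are CpG islands. Its median was 0.796 in the promoter windows of the 975 start genes and 0.586 in all 20085. The ratio was at least 0.6 in 79.2% of the former and 48.9% of the latter. When genes were ranked by this ratio, 0.875% of the lowest of 4 equal groups had a start region, then 4.28%, 8.89% and 9.65%. Regions at 3′ ends did not follow the promoter's ratio, with 0.681%, 0.777%, 1.02% and 0.824% of the same groups.

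Among 14 short words searched on both strands, the ETS core (CGGAAG) stood out at the summits. ETS factors such as ETS1, FLI1 and GABPA bind this core, and several are abundant in T cells. It was in 21.5% of all promoter windows, 40% of those of start genes and 48.3% (43.4–53.3) of the 391 that held the summit. Within 50 bases of the summit it was in 21.1% (16.8–26.2) of 289 windows, and in 8.69% of all promoters at the same offsets. In promoters with a CpG ratio of at least 0.6 these values were 24.0% (18.9–29.9) and 14.1%. The core was not particular to these regions. Over every RefSeq promoter window, it was in 47.7% (42.9–52.5) of the 411 holding a summit of these regions. Shared summits at the ends of more than 1 gene gave 61.9% (51.2–71.6) of 84, those in gene bodies 30.7% and those outside coding genes 19.4%. At 1 coding gene end, replicate 1 summits without a partner gave 43.3% and such replicate 2 summits 28.9%. The next 4 sequences show ETS cores (in capitals) at the summits, chosen after the values were seen as the highest-ranking windows with a core within 25 bases. Each is given 5′ to 3′ along the gene on GRCm38.p6 with the summit at base 41.
Ing4 (chr6:125039717-125039797, plus strand): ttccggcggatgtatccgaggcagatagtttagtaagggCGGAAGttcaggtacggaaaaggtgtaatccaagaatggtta
Tent2 (chr13:93192368-93192423, minus strand): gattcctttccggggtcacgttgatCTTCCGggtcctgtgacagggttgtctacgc
Atp6v1e1 (chr6:120822744-120822824, minus strand): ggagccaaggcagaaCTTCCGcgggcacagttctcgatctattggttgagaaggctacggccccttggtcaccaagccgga
Gdi2 (chr13:3537900-3537980, plus strand): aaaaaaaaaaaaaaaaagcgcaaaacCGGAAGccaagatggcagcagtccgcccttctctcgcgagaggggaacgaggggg

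In Ing4, a chromatin reader gene, the core was centred 1.5 bases from the summit, and its scores were 28.1 and 49.7. In Tent2, a poly(A) polymerase gene, it was 12.5 bases away, with scores of 27.6 and 50.9. In Atp6v1e1, a subunit of the vacuolar proton pump, it was 22.5 bases away, with 25.4 and 45.4. In Gdi2, a regulator of Rab GTPases, it was 11.5 bases away, with 15.9 and 36.8. The promoter windows of Ing4, Atp6v1e1 and Gdi2 also held a run of 10 or more adenines, and that of Tent2 held no run. A match is a stretch of letters and does not show that a factor binds there.

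The ETS core was not tied to high scores as the runs were. In 4 equal groups by mean percentile, from the lowest, 52.0%, 57.1%, 43.9% and 40.2% of windows held the core, while 1.02%, 3.06%, 25.5% and 53.6% held a run. The intervals of the core share overlapped between the lowest (42.3–61.7) and the highest (31.0–50.2) group. Windows with the core had median scores of 7.25 and 9.44, and those without it 8.34 and 12.03. In the 310 windows with no run the core share was 51.3%, and within 50 bases of the summit it was 24.0% of 221.

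The GC box (GGGCGG), bound by SP and KLF factors, showed no such excess at the summit. It was in 62.4% of the windows of start genes and 47.0% of all, but in CpG-rich promoters in 69.6% and 74.3%. Within 50 bases of the summit it was in 21.1% (16.8–26.2) of windows and in 26.2% of all promoters at the same offsets. In CpG-rich promoters these values were 25.3% (20.1–31.3) and 42.7%, so the word was rarer near these summits than at the same places in CpG-rich promoters at large.

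The CCAAT box and the TATA box had intervals below their background near the summit. The CCAAT box (CCAAT) was in 11.8% (8.54–16.0) of windows and 17.7% of all promoters at the same offsets, and the TATA box (TATAAA) in 1.73% (0.741–3.99) and 4.63%. In CpG-rich promoters the CCAAT box was in 12.2% (8.60–17.1) and 18.2%, and the TATA box in 1.31% (0.447–3.78) and 1.77%, so that the TATA difference no longer lay outside the interval. The NRF1 core (GCGCATGC) was in 2.77% (1.41–5.37) and 1.40%, and in CpG-rich promoters in 3.49% (1.78–6.74) and 2.48%. The RUNX word (TGTGGTT) was in 2.77% and 1.55%, the E box (CACGTG) in 2.77% and 2.99%, the STAT word (TTCNNNGAA) in 2.08% and 2.55% and AP-1 (TGACTCA) in 0.692% and 1.65%. The core of ZFP57 (TGCCGC), a KRAB zinc finger protein of imprinted loci, was in 4.84% (2.91–7.97) and 4.88%. The words for YY1 (AAGATGGC), the cyclic AMP response element (TGACGTCA), ZFP143 (ACTACAA) and the tRNA B box (GGTTCGA) were each in at most 6 windows. Words of this list can overlap each other by chance.

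**Figure D5:**
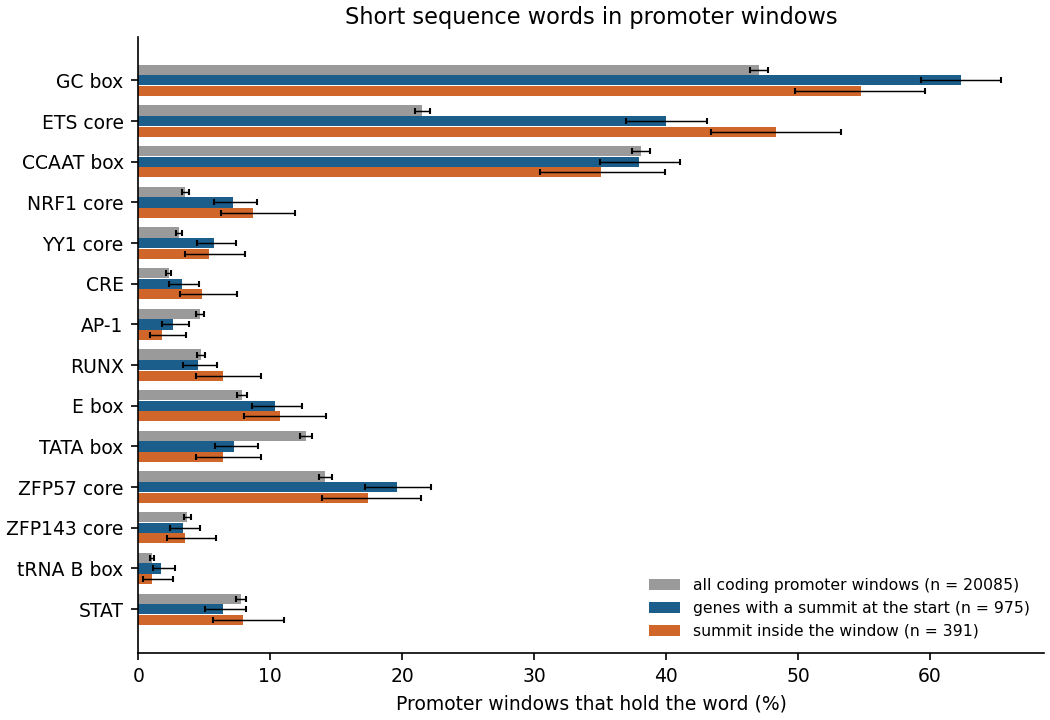
Share of promoter windows that hold each of the 14 words on either strand, for all 20085 coding promoter windows, the 975 genes with a start region and the 391 windows that hold the summit, with 95% Wilson intervals (counting error only). The ETS core goes from 21.5% to 40% to 48.3%, and the GC box is at 47.0%, 62.4% and 54.7%.

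Noncoding genes lay near some regions. A long noncoding RNA gene was within 1000 bp of 129 of the 1017 start regions, 12.7% (10.8–14.9), and of 8.04% (7.63–8.46) of all coding starts with a strand. The shares of all coding starts and ends given here include those near a second coding gene, which the rule leaves out of the regions. Ino80dos lay 136 bp from the Ino80d summit, and Snhg1, host of small nucleolar RNAs, lay 40 bp from the Slc3a2 summit. A tRNA gene was near 10 regions, 0.678% (0.368–1.24), and near 0.0992% of all coding gene ends. At starts it was 7 of 1017, 0.688% (0.334–1.41), and 0.201% of all coding starts with a strand. The highest-ranking region near a tRNA gene was that of Ctnna3, with scores of 37.4 and 48.7 and the tRNA gene 26 bp away. In Psma3 the tRNA gene was 54 bp from the summit, and in Polr3e, a subunit gene of RNA polymerase III, 18 bp. In such places the rule credits the summit to the coding gene, and which gene it belongs to was not tested.

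Genes with more than 1 region numbered 73, each with 2, and 1330 genes had 1. In 56 genes both lay at the same end, 163 to 1594 bp apart (median 706), and in 17 there was 1 at each end. Rere, a corepressor gene, had summits 85 bp outside and 298 bp inside its start, with replicate 1 scores of 52.7 and 14.4 and replicate 2 scores of 52.5 and 13.8. Zfp809 had 2 at its start, 1284 bp apart, with replicate 1 scores of 28.0 and 13.3. Ankrd13a had 1 inside its start and 1 inside its 3′ end, with replicate 1 scores of 23.9 and 22.2. Regions at the same gene are not independent.

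The regions were spread over all 19 chromosomes tested. The share of coding genes with a region was lowest on chromosome 14 (5.05%) and highest on chromosome 11 (8.89%). Genes with a region were somewhat longer than coding genes at large, with a median of 22576 bp compared with 17491 bp. Start genes had a median of 23817 bp and genes with a region at the 3′ end 15080.5 bp. Another shared summit lay within 5000 bp of 19.2% of the regions, compared with 18.4% of shared summits in gene bodies.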

How the data were processed

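KAP1 ChIP-seq was analysed from 2 samples of cultured mouse regulatory T cells. Per the submitters' processing notes, reads on build mm10 were handled with MACS2 2.2.1, Bowtie2 2.2.9 and Picard 2.1.1. Settings and thresholds: not given in the sources used here. The authors deposited 1 summit list per sample, with a −log10 score (of p or of q), used here only to rank and describe. Depth is unknown.

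Positions are 1-based. The 4 regions within 1000 bp of both ends of their gene were credited to the nearer end. Genes came from the RefSeq table of GRCm38.p6 (49997 genes, 21900 coding), and starts, strand and sequence from RefSeq promoter windows, found for 79.6% of coding genes on chromosomes 1 to 19. For 90.0% of these, the outermost listed start was within 1000 bp of the gene's start coordinate. Intervals are Wilson 95% and cover counting error only. With 1 group of 2 samples, no test between groups was made. Shares at the same offsets average, over the summits, the share of all coding promoters with the word around that offset.

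The regions, the 20 gene lists and families and the words were chosen with earlier results of these data known. Named genes were those of the 20 regions with the highest mean percentile, up to 4 per list, those nearest the limits, and Foxp3, Trim28, Il2ra, Ctla4 and Ikzf2; other names from short lists, the ETS sequences, the genes near noncoding genes and those with 2 regions were picked after their values were seen. Alternatives were shared distances of 50 and 500 bp, windows of 500 and 2500 bp, stricter scores, replicate 2 reduced to the length of replicate 1, and each replicate alone. The steps were tested on simulated data. Python 3.11.15, numpy 2.4.6, pandas 2.3.3, scipy 1.17.1 and matplotlib 3.10.9 were used. A gene that the rule for named genes would include is not reported here.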

Additional observations from a re-analysis of the deposited data

Results flagged for a closer look

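Chromosome X was outside the rule. It held 68 shared summits in all, fewer than any of chromosomes 1 to 19, where the lowest count was 195. Of these 68, 22 lay at 1 coding gene end. They were at 22 of 966 coding genes or 2.28%, compared with 6.79% on chromosomes 1 to 19. These genes include Ogt, Med14, Stag2 and Rpl36a, named after their values were seen. Replicate 1 had 202 summits at 1 coding gene end with no replicate 2 summit within 200 bp, and these were not among the regions although replicate 2 is the longer list. Their median replicate 1 score was 4.17, compared with 8.34 for the shared regions.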

How the results depend on the processing

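Of the values recomputed for the count of regions, their genes, the start share, the share inside the gene, the median replicate 1 percentile and the shares with a run or an ETS core, 30 stayed close to the reported value and 16 moved. No direction reversed. Shared distances of 50 and 500 bp gave 1378 and 1494 regions. With scores at or above the median of both lists there were 858 regions at 827 genes with a median percentile of 77.5. With only as many top replicate 2 summits as replicate 1 has, there were 660 regions at 643 genes, 33.3% of them inside the gene, with a median percentile of 80.7. Gene end windows of 500 and 2500 bp gave start shares of 90.75% and 83.5% and inside shares of 33.5% and 43.3%. Leaving out a replicate gave 1678 to 4417 regions at 1549 to 3965 genes, start shares of 67.1% to 88.5%, inside shares of 38.4% to 38.5% and median percentiles of 51.8 to 57.6; the 67.1% is replicate 2 alone. Chosen after seeing the data, runs of 15 or more were in 15.6% of windows. Of the other lists, the stricter scores left 14 of 376 solute carrier genes, 1 of 77 histone genes, 2 of 52 splicing and hnRNP genes and 1 of 25 KAP1 partners with a region, beside 4% of all coding genes. The cause was not tested. No paired analysis was possible because the 2 KAP1 samples form 1 group. Sequence was read only in promoter windows, so 626 start regions with the summit elsewhere have no sequence here.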

Other observations

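All words of 6 letters within 50 bases of the summit were also counted in the 289 windows, each set beside all coding promoters at the same offsets. Of 398 words found in at least 20 windows, 5 of the 6 with the highest ratio held CGGAA or its reverse complement. CGGAAC was in 16.3% (12.5–21.0) of windows and 3.60% of promoters, ACGGAA in 10.4% and 2.59%, CGGAAA in 11.8% and 3.92%, and CCGGAA in 22.1% and 7.60%. The count was made after the data were seen, and the words overlap each other. A CpG ratio of at least 0.6 was found in 229 of the 289 windows and in 48.9% of all coding promoters. No comparison within CpG-rich promoters is given for these words. For CGGAAG the values were 21.1% and 8.69%, and in CpG-rich promoters 24.0% and 14.1%.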
